A study of Mus musculus with 36 samples.

Results

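The response of B6C3F1 mouse liver to 91 days of phenobarbital (PB) was read across the whole transcriptome, from the 9 B6C3F1 RNA-seq libraries among the 36 libraries of the study. B6C3F1 is the first-generation hybrid of a C57BL/6 mother and a C3H/He father. All 9 mice were males supplied by Charles River at an age of 4 to 5 weeks. After acclimatization the animals were divided at random into groups of 5. The 5 mice labelled PB_2031 to PB_2035 drank water with 0.05% wt/vol PB. The vehicle-treated group, without PB, is represented by 4 mice (labelled Vh_1031, Vh_1032, Vh_1033 and Vh_1035), as 1 of its animals has no library here. Each library came from the total RNA of 1 whole liver piece, so no cell type was isolated. The study set this strain, in which PB promotes liver tumours, against C57BL/6 males, here 4 vehicle-treated and 5 PB-treated mice. The C57BL/6 mice came from another supplier, Taconic, at an age of 9 to 11 weeks, so strain cannot be told apart from supplier and age.

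PB is an anticonvulsant barbiturate and the classical inducer of drug-metabolizing enzymes in liver. It activates the nuclear receptor CAR (encoded by Nr1i3), which moves into the hepatocyte nucleus, pairs with RXR and binds enhancers of drug-metabolism genes such as Cyp2b10. The induced set is known to span oxidation by cytochromes P450, conjugation by transferases, and export by transporters, and long exposure enlarges the hepatocytes around the central vein.

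Values are counts-per-million (CPM), reads scaled to the library size, as the authors deposited them. A log2 fold change (log2 FC) is the PB-treated minus the vehicle-treated mean of log2(CPM + 0.1), which understates the change of genes near 0. A gene is said to have risen or fallen where the Benjamini-Hochberg adjusted p over 13838 genes (FDR, from limma) was at most 0.01 and the log2 FC was at least 0.58 in size, the cutoffs of the study. Errors after a log2 FC are standard errors (SE). Values per mouse are listed in the order of the animal numbers. The vehicle-treated libraries held 27.2 to 30.3 M reads over the genes and the PB-treated ones 27.0 to 29.7 M reads, so 1 read was worth 0.0336 to 0.0377 CPM. On the 1000 most variable genes the first principal component (47.9% of the variance) separated all PB-treated from all vehicle-treated mice, and the second (11.6%) set mouse Vh_1033, at −22.2, apart from the other 3 vehicle mice at 6.92 to 9.90.

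A total of 277 genes changed, 2.00% of the 13838 tested. Of these, 215 rose (1.55%) and 62 fell (0.448%). In 202 of the rising genes every PB-treated mouse lay above every vehicle-treated mouse, and in 56 of the falling genes every PB-treated mouse lay below. Over all tested genes these separations were seen in 748 genes (5.41%) and 504 genes (3.64%). The rising side also reached further. The median log2 FC was 1.23 among the rising genes and −0.91 among the falling ones, beside −0.01 over all tested genes. A log2 FC of at least 2 in size was found in 54 rising and 5 falling genes. Vehicle-treated liver had a mean under 1 CPM for 56 of the rising genes but for 4 of the falling ones, and 42 rising genes passed 100 CPM under PB. A gene near 0 without PB could enter the test through its PB-treated group and had little room to fall. The filter and the floor therefore favour rising genes in the count under 1 CPM. Of the rising genes with a RefSeq entry 200 were protein-coding and 9 were long non-coding RNAs. Of the falling ones 57 were protein-coding, 3 were long non-coding RNAs and 1 was a microRNA gene.

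**Figure D1:**
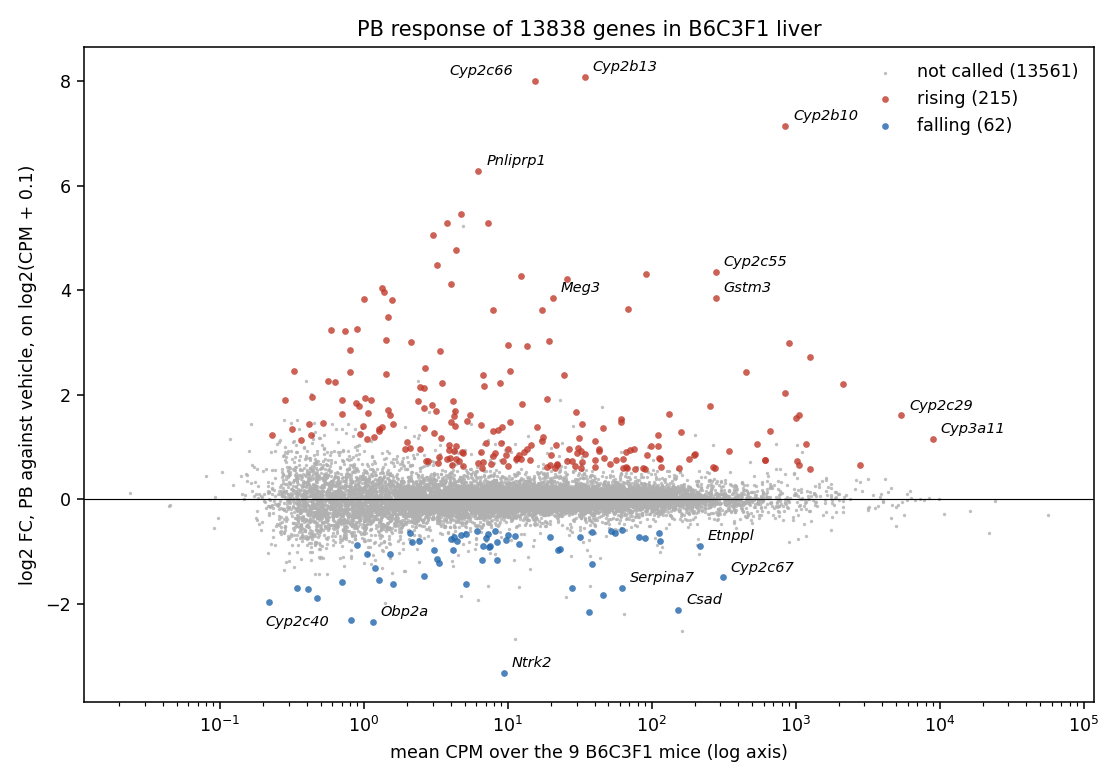
Each point is 1 of 13838 genes, with its mean CPM over the 9 B6C3F1 mice on a log axis and its log2 FC between PB-treated and vehicle-treated mice on the y axis, and 215 rising genes are red, 62 falling genes blue and 13561 others grey. The rising genes reach a log2 FC of 8.07 (Cyp2b13) while the falling ones end at −3.32 (Ntrk2).

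As examples that do not stand for all changed genes, the RefSeq promoters of 3 genes are printed here. They are the leading target Cyp2b10, the induced Cyp2c55, whose promoter opened as that of Cyp2b10 did, and Nt5e, the 1 falling gene with a promoter site called as closing, a call that was lost without any 1 mouse other than PB_2035. Each sequence runs 5′ to 3′ on the plus strand of GRCm38.p6 (mm10), from 250 bases before the annotated start to 50 bases after it, and capitals mark the letters TATAAA, searched on both strands, and every CG dinucleotide. The windows are chr7:25897408-25897707 for Cyp2b10, chr19:39006769-39007068 for Cyp2c55 and chr9:88327359-88327658 for Nt5e.
Cyp2b10: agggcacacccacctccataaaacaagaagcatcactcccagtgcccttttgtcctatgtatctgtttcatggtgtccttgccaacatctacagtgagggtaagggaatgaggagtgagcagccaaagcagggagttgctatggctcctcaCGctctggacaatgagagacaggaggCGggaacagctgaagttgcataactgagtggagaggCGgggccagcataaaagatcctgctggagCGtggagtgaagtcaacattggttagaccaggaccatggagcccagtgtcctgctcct
Cyp2c55: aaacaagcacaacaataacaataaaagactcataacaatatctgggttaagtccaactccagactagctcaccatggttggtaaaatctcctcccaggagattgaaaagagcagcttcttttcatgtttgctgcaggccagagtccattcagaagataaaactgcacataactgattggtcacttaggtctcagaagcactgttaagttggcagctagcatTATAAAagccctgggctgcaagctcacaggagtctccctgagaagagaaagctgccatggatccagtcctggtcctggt
Nt5e: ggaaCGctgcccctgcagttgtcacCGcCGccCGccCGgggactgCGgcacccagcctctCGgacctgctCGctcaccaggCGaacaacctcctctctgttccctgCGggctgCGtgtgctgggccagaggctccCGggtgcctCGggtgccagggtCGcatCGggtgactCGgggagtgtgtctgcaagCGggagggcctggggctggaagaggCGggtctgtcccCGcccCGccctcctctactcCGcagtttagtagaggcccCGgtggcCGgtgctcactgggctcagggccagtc
The Cyp2c55 window was 44.7% G and C with 0 CG and had TATAAA 29 bases before the start. The Cyp2b10 window was 53% G and C with 4 CG, and the Nt5e window was 71% G and C with 23 CG, both without TATAAA. The search took these exact letters only, so the near match cataaaag in the Cyp2b10 window was not counted. The letters TATAAA stood in 9.64% of the 10897 promoters of that length that matched a tested gene. Such promoters were matched for 163 of the 215 rising and 46 of the 62 falling genes, under 80% of each, so the share among the changed genes was not compared.

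Cytochromes P450, the haem enzymes that oxidize drugs, steroids and fatty acids, gave the leading changes. Of 72 P450 genes tested, 16 rose and 6 fell, with a median log2 FC of 0.17 against −0.01 over all genes. The 6 became 3 without mouse Vh_1032, Vh_1035, PB_2031, PB_2033 or PB_2034. Reads on all P450 genes together took 25487 to 29860 CPM in the vehicle-treated mice and 45721 to 53252 CPM in the PB-treated mice. The 3 members of the Cyp2b family all rose. Cyp2b10, the classical CAR target, was at 16.7, 8.36, 16.4 and 5.51 CPM in the vehicle-treated mice and at 1662, 1179, 1737, 1381 and 1634 CPM in the PB-treated mice. Even the lowest PB-treated mouse was far above the highest vehicle-treated one, and the log2 FC was 7.13 ± 0.28 (FDR 4.66e-10). Cyp2b13, which female mouse liver expresses more than male liver, went from 0.237, 0.0672, 0.317 and 0 CPM to 52.1, 94.2, 52.3, 61.8 and 46.0 CPM, a log2 FC of 8.07 ± 0.39 (FDR 2.62e-09). Cyp2b9, also female-biased, varied from 2.83 to 31.4 CPM between vehicle-treated mice, the highest being mouse Vh_1033, and reached 89.9 to 167 CPM under PB (log2 FC 3.63 ± 0.50, FDR 3.05e-04). For Cyp2b13 and Cyp2b9 mouse PB_2032 was the highest of the 5, whereas for Cyp2b10 it was the lowest.

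The Cyp2c family, whose members oxidize drugs and arachidonic acid, moved in both directions. Of its 15 tested members 7 rose, 5 fell and 3 did not pass the test, and all of them are given here, beyond those the naming rule picked. Cyp2c66 had a single read in the 4 vehicle-treated livers and 3806 reads in the 5 PB-treated ones, at 23.8 to 33.0 CPM, a ratio of 3165 (95% counting interval 568 to 125062). Cyp2c55 was at 23.5, 26.2, 26.3 and 18.6 CPM without PB and at 501, 417, 583, 463 and 442 CPM with it (log2 FC 4.34 ± 0.20, FDR 2.43e-09). Cyp2c29, the main PB-inducible Cyp2c enzyme of mouse liver, was already at 2160 to 2769 CPM and rose to 7184 to 8907 CPM, a log2 FC of 1.60 ± 0.08 (FDR 2.70e-11). Cyp2c37, Cyp2c54 and Cyp2c50 rose by log2 FC of 2.98, 2.73 and 2.20, from 124 to 249, 204 to 363 and 564 to 805 CPM to 1361 to 1504, 1743 to 2317 and 2854 to 3688 CPM. In none of these genes did the groups overlap. Cyp2c65 rose from at most 0.0678 CPM to 1.12 to 3.24 CPM, and the transcribed pseudogene Cyp2c53-ps had a log2 FC of 4.30 ± 0.16 (FDR 5.23e-11).

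The falling Cyp2c genes included well expressed ones. Cyp2c38 was at 54.2, 63.6, 99.6 and 82.2 CPM in the vehicle-treated mice and at 13.7, 37.4, 11.0, 16.4 and 37.1 CPM in the PB-treated ones (log2 FC −1.84 ± 0.37, FDR 5.10e-03). Cyp2c39 was at 53.2, 55.9, 78.4 and 60.3 CPM and fell to 8.95, 25.2, 6.51, 10.2 and 31.6 CPM (log2 FC −2.16 ± 0.42, FDR 4.51e-03). In both genes mice PB_2032 and PB_2035 were the highest of the PB-treated mice and mouse PB_2033 the lowest. Cyp2c67 was at 544, 556, 294 and 518 CPM against 121, 208, 105, 136 and 323 CPM, so that mouse PB_2035 lay above mouse Vh_1033 (log2 FC −1.50 ± 0.29, FDR 4.03e-03). Cyp2c40 and Cyp2c69, both female-biased, fell at low levels, from means of 1.53 and 0.446 CPM to 0.232 and 0.0363 CPM. Cyp2c68 had a log2 FC of −0.92 (FDR 0.0107), Cyp2c70 one of 0.49 (FDR 0.125) and Cyp2c44 one of 0.04 (FDR 0.775). These genes are near-identical in stretches and the authors kept uniquely mapped reads, so the split of reads between neighbours is uncertain.

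Placed in their order on chromosome 19 (mm10), the Cyp2c genes fell into runs of like response over 1146 kb between the starts of Cyp2c55 and Cyp2c70. Cyp2c55 (chr19:39006940-39042690), Cyp2c65, Cyp2c66, Cyp2c53-ps and Cyp2c29 rose. Then came Cyp2c39 (annotated at chr19:39347346-39569568), Cyp2c38, Cyp2c67, Cyp2c68, Cyp2c40 and Cyp2c69 (chr19:39842660-39886769), which all had a negative log2 FC and of which 5 fell. Beyond them Cyp2c37, Cyp2c54 and Cyp2c50 rose again. The number of falling members rested on which mice entered the fit. It was 5 with all mice, 2 without mouse Vh_1032, mouse Vh_1035, mouse PB_2031 or mouse PB_2034, 3 without mouse Vh_1031 or mouse PB_2033, 4 without mouse Vh_1033, 6 without mouse PB_2032 or mouse PB_2035, and 1 when the C57BL/6 libraries were left out of the fit, while the 7 rising members stayed 7 without any 1 mouse.

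**Figure D2:**
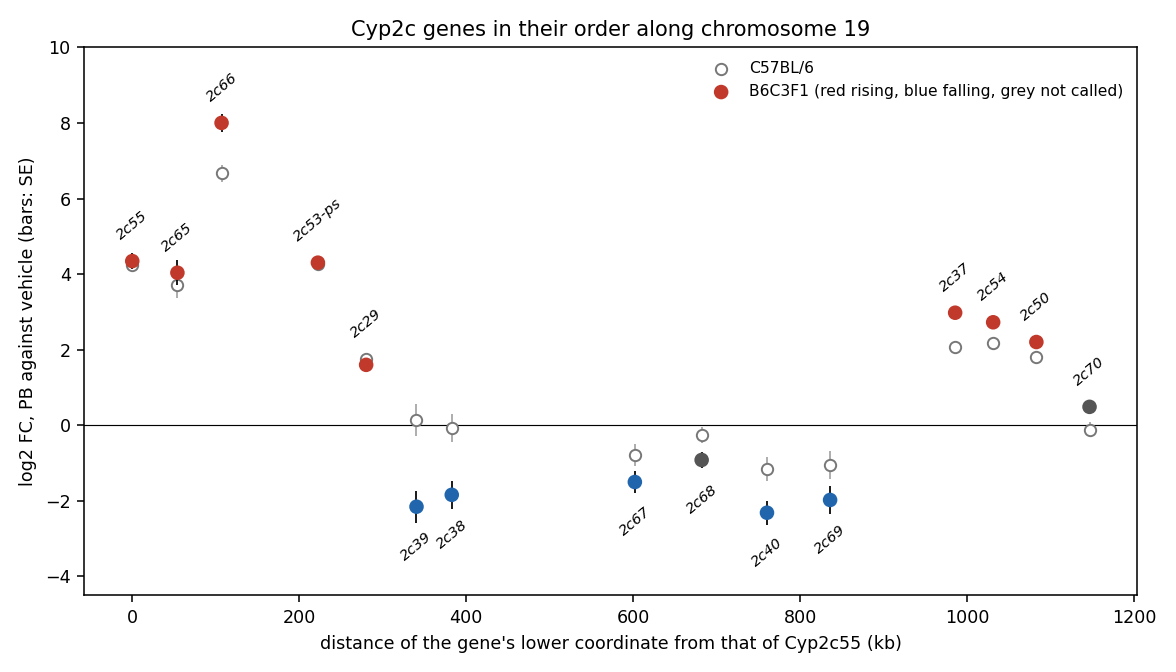
Points show the log2 FC (y axis, bars are SE) of 15 Cyp2c genes at the distance of their lower coordinate from that of Cyp2c55 in kb (x axis), with B6C3F1 filled (red rising, blue falling, grey not called) and C57BL/6 open. A run of falling B6C3F1 genes sits between rising runs, and Cyp2c39 and Cyp2c38 lie at 0.13 and −0.07 in C57BL/6.

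In the other P450 families most changes were increases. Cyp2a5, which oxidizes coumarin and nicotine, rose from 233 to 368 CPM to 939 to 1506 CPM (log2 FC 2.03 ± 0.16, FDR 8.34e-07). Cyp3a11, the main drug-oxidizing member of family 3a, rose from 4565 to 6212 CPM to 9787 to 13914 CPM (log2 FC 1.15 ± 0.12, FDR 8.59e-06). It was the 1 of 4 tested members of family 3a that passed both cutoffs. Cyp3a13 had a log2 FC of 0.54 with an FDR of 1.1e-06, below the size cutoff. Cyp1a2, a target of the aryl hydrocarbon receptor and of CAR, rose from 264 to 439 CPM to 789 to 951 CPM (log2 FC 1.30 ± 0.16), and Ahr, which encodes that receptor, rose by 1.01 ± 0.20 (FDR 4.58e-03). Cyp1a2 kept its call in all 22 alternative settings, whereas Ahr lost it in 9 of 22, 7 of them fits without 1 mouse. In family 2d, Cyp2d12 rose from at most 0.437 CPM to 6.66 to 19.6 CPM, and Cyp2d40 fell from 61.2 to 88.9 CPM to 35.3 to 55.6 CPM (log2 FC −0.65 ± 0.12, FDR 1.36e-03). None of the 14 tested members of family 4, the fatty acid omega-hydroxylases, passed the test, and their median log2 FC was −0.19.

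Electron donors of the P450s were listed with other partners and reductases of oxidation, of which 3 of 28 rose and 0 fell (median log2 FC 0.10). Por, the reductase that passes electrons from NADPH to every microsomal P450, was at 103, 118, 102 and 100.0 CPM without PB and at 415, 261, 416, 313 and 449 CPM with it (log2 FC 1.79 ± 0.16, FDR 2.12e-06). Cyb5a, cytochrome b5, rose from 624 to 813 CPM to 1192 to 1262 CPM (log2 FC 0.73 ± 0.06). The 14 tested genes of haem synthesis and breakdown gave no call, with a median log2 FC of 0.07. Alas1, the rate-limiting step of haem synthesis in liver, was at 340 to 671 CPM in vehicle-treated mice and at 358 to 408 CPM in 4 PB-treated mice, with mouse PB_2035 at 1133 CPM (log2 FC −0.02 ± 0.47, FDR 0.99).

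The conjugation lists held rising genes and no falling one, and most of their members did not pass the test. Sulfotransferases, which add sulfate to steroids, bile acids and phenols, had 5 rising genes among 9 tested and a median log2 FC of 1.14. Sult1e1, oestrogen sulfotransferase, had 3 reads in all vehicle-treated libraries and 947 reads under PB, a ratio of 263 (95% counting interval 89.6 to 1275), spread over 5.13, 1.54, 13.5, 11.8 and 1.91 CPM. Sult3a1 rose from at most 0.176 CPM to 4.94, 9.63, 4.03, 4.01 and 4.18 CPM (log2 FC 5.06 ± 0.42, FDR 2.56e-07). Sult1c2, Sult2a7 and Sult1d1 rose by log2 FC of 1.38, 1.47 and 0.86, and so did Papss2, which makes the sulfate donor, by 0.59 ± 0.07 (FDR 3.89e-06; a gene picked after its value was seen).

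Glutathione S-transferases couple electrophiles to glutathione, and 5 of the 21 tested rose, with a median log2 FC of 0.29. Gstm3 was at 26.5, 32.6, 40.4 and 22.9 CPM and rose to 659, 272, 732, 481 and 242 CPM (log2 FC 3.85 ± 0.34, FDR 3.57e-06). Mice PB_2032 and PB_2035 were the lower ones here, and they too were far above the highest vehicle-treated mouse. Gstm1 rose from 431 to 555 CPM to 1192 to 1651 CPM (log2 FC 1.54 ± 0.09), and Gstt3, Gstm4 and Gsta4 rose by 1.62, 0.93 and 0.59. Of the 18 UDP-glucuronosyltransferases, which attach glucuronic acid, 5 rose (median 0.42). Ugt1a1, the bilirubin-conjugating enzyme, was at 202 to 243 CPM against 407 to 479 CPM (log2 FC 0.91 ± 0.06, FDR 1.13e-09), and Ugt1a9, Ugt2b34 and Ugt2b35 rose by 1.37, 1.05 and 1.05. The Ugt1a isoforms share their last exons, so reads there cannot be assigned to 1 of them. Ugt2b1 passed narrowly (log2 FC 0.58 ± 0.13, FDR 9.62e-03).

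Esterases and reductases followed on a smaller scale. Of 15 carboxylesterases, which cleave ester drugs and lipids, Ces2a (467 to 526 CPM to 1114 to 1834 CPM, log2 FC 1.60 ± 0.13), Ces2c (1.53 ± 0.13) and Ces1d (0.66 ± 0.08) rose. Akr1b7, an aldo-keto reductase known as a CAR and PXR target, rose from at most 0.599 CPM to 2.95 to 12.4 CPM and was the 1 rising gene of 14 in its family. Aldh1a1, which oxidizes retinal, rose in a tight range, from 2047 to 2387 CPM to 3254 to 3444 CPM (log2 FC 0.64 ± 0.05, FDR 4.22e-08). Inmt, an N-methyltransferase, rose by 0.74 ± 0.10.

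Transporters gave 2 rising genes among 36 ABC pumps and 5 among 28 organic anion and cation carriers. The 5 became 4 without mouse Vh_1032, Vh_1035 or PB_2032, 3 without mouse Vh_1031, PB_2031 or PB_2033, and 2 without mouse Vh_1033, PB_2034 or PB_2035. Abcc4, which exports bile acids and conjugates across the basolateral membrane, was at 3.73, 4.16, 4.33 and 2.68 CPM and rose to 43.0, 18.9, 42.5, 27.8 and 27.4 CPM (log2 FC 3.02 ± 0.22, FDR 1.95e-07). Abcc3, a second basolateral exporter of glucuronides, rose from 413 to 481 CPM to 694 to 867 CPM. Slco1a4, an uptake carrier, rose by 0.77 ± 0.13 (FDR 1.16e-03). Among bile acid genes, 4 of 26 rose (Abcc4, Abcc3, Slco1a4 and Slc51b), all of them transporters, while Cyp7a1, the rate-limiting enzyme of bile acid synthesis, had a log2 FC of −0.41 that did not pass the test. Slc51b was under 1 CPM in all mice and passed narrowly (FDR 9.19e-03).

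The 28 targets of NRF2, the sensor of electrophilic stress, had 6 rising members and 25 positive log2 FC values, with a median of 0.32. The 6 were Gstm3, Abcc4, Gstm1, Abcc3, Srxn1 and Gsta4, of which 5 also belong to the conjugation and transport lists. Srxn1, which repairs oxidized peroxiredoxins, rose from 31.3 to 47.1 CPM to 52.7 to 72.3 CPM (log2 FC 0.67 ± 0.11). Nqo1, a defining target, had a log2 FC of 0.46 ± 0.18 (FDR 0.12), and Gclc and Hmox1 had 0.13 and −0.11.

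Several rising groups had no known part in drug metabolism. All 4 tested genes of the list for the Dlk1-Dio3 imprinted domain rose, with a median log2 FC of 3.90, 3 further listed genes not being in the table. Meg3, its maternally expressed long non-coding RNA, was at 3.46, 4.50, 0.564 and 2.60 CPM without PB and at 37.5, 21.9, 46.7, 40.3 and 27.5 CPM with it (log2 FC 3.85 ± 0.52, FDR 2.37e-04). Rian, the host of small nucleolar RNAs, followed from 2.91, 3.90, 0.810 and 2.42 CPM to 46.5, 28.6, 66.2, 49.4 and 32.2 CPM. The groups stood clear of each other in both genes, and mouse Vh_1033 was the lowest of the vehicle-treated mice. Rtl1, a retrotransposon-derived gene, and Mirg, a microRNA host, rose from at most 0.202 and 0.403 CPM to 1.12 to 3.55 and 1.72 to 3.56 CPM.

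Major urinary proteins, the pheromone carriers that male mouse liver secretes, had 5 rising genes among 15 tested and a median log2 FC of 0.91. Mup9 was at 176, 125, 95.4 and 133 CPM and rose to 890, 620, 809, 575 and 633 CPM (log2 FC 2.42 ± 0.41, FDR 1.51e-03). Mup15, Mup6, Mup13 and Mup10 rose by 3.62, 1.75, 1.70 and 1.36 at much lower levels of reads. Mup copies are nearly identical, so these assignments are uncertain, and Mup7 was at 146 CPM in mouse Vh_1033 against 966 to 1228 CPM in the other vehicle-treated mice. The 5 calls stayed 5 without that mouse.

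Secreted orosomucoids, acute phase carriers of basic drugs, rose in the form of Orm3, from 1.55 to 3.39 CPM to 12.9 to 19.9 CPM (log2 FC 2.95 ± 0.18, FDR 4.38e-10), and Orm2, by 1.48 ± 0.19. They were the 2 rising genes among 32 acute phase genes, whose median log2 FC was −0.03. Serpinb1a, an inhibitor of neutrophil proteases, rose from 5.66 to 8.83 CPM to 28.6 to 53.8 CPM (log2 FC 2.37 ± 0.25), the 1 rising serpin among 35.

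Growth arrest and adhesion genes rose singly. Gadd45b, a stress-inducible growth arrest gene and known CAR target, was at 0.441, 0.437, 0.352 and 1.27 CPM and rose to 11.6, 2.43, 5.86, 5.94 and 1.84 CPM (log2 FC 2.82 ± 0.49, FDR 1.26e-03). Cdkn2c, an inhibitor of CDK4 and CDK6, rose by 0.73 ± 0.15. Cdh1, the epithelial cadherin, was at 37.4, 32.3, 21.7 and 30.2 CPM and rose to 104, 56.9, 106, 74.9 and 82.7 CPM (log2 FC 1.47 ± 0.19, FDR 1.69e-04). Src, a tyrosine kinase at cell junctions, rose from 2.18 to 3.08 CPM to 5.04 to 11.2 CPM (log2 FC 1.60 ± 0.19), Tgfbr2, a TGF-beta receptor, by 0.72 ± 0.07, and Ank3, a membrane scaffold, by 0.64 ± 0.11. With the falling gene Ddah1 they gave 4 rising and 1 falling gene among the 16 adhesion and TGF-beta genes that the study named from these samples, so that count is not independent evidence. Ctnnb1, the gene of beta-catenin, had a log2 FC of 0.06.

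Lipid signalling was represented by Smpd3, a neutral sphingomyelinase that releases ceramide, which was at 2.51, 1.54, 2.43 and 2.60 CPM and rose to 33.7, 20.5, 35.2, 25.5 and 31.2 CPM (log2 FC 3.63 ± 0.14, FDR 1.10e-13). Sgpl1, the lyase that degrades sphingosine 1-phosphate, rose by 0.77 ± 0.07, and these were the 2 calls among 22 sphingolipid genes. Pnliprp1, related to pancreatic lipase, rose from at most 0.136 CPM to 14.4, 7.60, 12.8, 12.6 and 8.46 CPM (log2 FC 6.28 ± 0.39, FDR 1.96e-09). Of 11 exocrine pancreas markers 1 was in the table, Cela1, at 16.1 to 30.8 CPM without and 24.0 to 30.1 CPM with PB, and the other 10 were not listed. Nebl, an actin-binding nebulette, rose from 0.542 to 1.37 CPM to 13.5 to 30.4 CPM (log2 FC 4.28 ± 0.34).

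Keratins, ion channels and solute carriers were listed only after the changed genes had been seen. Of 8 tested keratins, the intermediate filament proteins of epithelia, 3 rose. They were Krt4, from at most 0.112 CPM to 13.2, 2.51, 16.3, 7.46 and 2.59 CPM, Krt79, with 3 reads over the vehicle-treated and 78 reads over the PB-treated libraries, and Krt18, a keratin of hepatocytes, from 114 to 139 CPM to 149 to 199 CPM (log2 FC 0.59 ± 0.09). Krt19 and Krt7, keratins of bile duct cells, stayed within 0.339 to 1.23 and 0.300 to 0.856 CPM in all 9 mice. Of 57 ion channels and neurotransmitter receptors 7 rose and 1 fell, among them the potassium channel Kcnk1 (log2 FC 4.77 ± 0.50), the sodium channel Scn8a (3.05 ± 0.44) and the falling acetylcholine receptor subunit Chrnb2 (−0.80 ± 0.16). Of 240 solute carriers 9 rose, led by the dicarboxylate carrier Slc13a2 (2.13 ± 0.22), and 3 fell. The solute carriers had 118 positive and 122 negative log2 FC values, with a median of −0.01. The 9 rising solute carriers became 5 without mouse Vh_1031. Over all tested genes 1.55% rose and 0.448% fell.

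The 62 falling genes were a diverse set, of which 16 belonged to a list of known function, and 22 when the lists added after the changed genes had been seen are counted. The largest decrease on the log2(CPM + 0.1) scale was that of Ntrk2, the receptor of brain-derived neurotrophic factor, whose liver expression is female-biased. It was at 14.6, 10.3, 20.4 and 29.8 CPM in the vehicle-treated mice and at 1.28, 1.16, 3.78, 1.80 and 1.19 CPM in the PB-treated ones (log2 FC −3.32 ± 0.44, FDR 1.16e-04). Csad, the decarboxylase that makes the taurine precursor hypotaurine, was at 175, 307, 322 and 259 CPM and fell to 59.2, 43.7, 53.4, 55.2 and 97.8 CPM (log2 FC −2.12 ± 0.25, FDR 5.59e-05). As a ratio of mean CPM, Cyp2c69 fell further than Ntrk2, 12.3-fold against 10.2-fold, but with 5 reads over the PB-treated libraries. Csad was the 1 call among 26 genes of taurine, methionine and one-carbon metabolism. The separations in Ntrk2 and Csad were complete, with the highest PB-treated mouse under the lowest vehicle-treated one.

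Secreted and carrier proteins were among the falling genes. Serpina7, thyroxine-binding globulin, was at 88.5, 104, 136 and 69.1 CPM and fell to 22.7, 44.0, 16.5, 28.6 and 47.0 CPM (log2 FC −1.71 ± 0.32, FDR 3.21e-03). Dio1, which deiodinates thyroid hormones, moved the other way, from 40.3 to 56.1 CPM to 72.2 to 107 CPM (log2 FC 0.97 ± 0.14, FDR 2.54e-04; picked after its value was seen). Obp2a, an odorant-binding lipocalin, fell from 1.36 to 3.09 CPM to 0.264 to 0.412 CPM (log2 FC −2.35 ± 0.30). 1500017E21Rik, a liver-expressed non-coding transcript, fell from 40.1 to 47.9 CPM to 8.42 to 27.5 CPM (log2 FC −1.71 ± 0.27, FDR 8.62e-04).

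Transport and intermediary metabolism gave a further group. Slc16a11 and Slc16a13, neighbouring monocarboxylate transporters on chromosome 11, fell together. Slc16a11 was at 7.32, 7.69, 10.7 and 7.22 CPM against 2.26, 2.77, 1.87, 2.04 and 4.50 CPM (log2 FC −1.63 ± 0.18, FDR 2.52e-06), and Slc16a13 had a log2 FC of −1.54 ± 0.24 (FDR 1.37e-04). The other 10 monocarboxylate transporters tested gave no call, in a list drawn up after both changes had been seen. Etnppl, the phospholyase that breaks down phosphoethanolamine, was at 271, 325, 333 and 234 CPM and fell to 151, 164, 145, 162 and 150 CPM (log2 FC −0.90 ± 0.08, FDR 2.12e-07). The PB-treated mice lay close together there. Pmm1, a phosphomannomutase, fell by 1.63 ± 0.22 on the log2 scale and Slc25a22, the mitochondrial glutamate carrier, by 0.59 ± 0.09. Acnat2, a peroxisomal acyltransferase picked after its value was seen, fell from 49.6 to 62.4 CPM to 17.8 to 36.6 CPM (log2 FC −1.24 ± 0.21, FDR 1.54e-03).

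Genes under the fatty acid sensor PPAR-alpha had mostly negative values and few calls. Of 46 targets and fatty acid oxidation genes, 2 fell, 0 rose, and 43 had a negative log2 FC, with a median of −0.27. The falling members were Pex11a, which divides peroxisomes (20.1 to 33.4 CPM to 12.5 to 17.5 CPM, log2 FC −0.72 ± 0.14, FDR 3.19e-03), and Plin5, a lipid droplet coat protein (39.3 to 58.1 CPM to 27.4 to 35.4 CPM, −0.62 ± 0.12, FDR 2.06e-03). The count of falling members was 0 without mouse Vh_1032 or Vh_1033, 1 without mouse PB_2031 or PB_2033, and 3 without mouse Vh_1031. Ppara itself was at 298 to 410 CPM without and 218 to 282 CPM with PB, with an FDR of 0.0015 but a log2 FC of −0.47, under the size cutoff. Cyp4a14, a sensitive target, had a log2 FC of −2.21 ± 1.24 (FDR 0.31), as it ranged from 22.7 to 203 CPM in vehicle-treated and from 3.11 to 150 CPM in PB-treated mice. Mouse PB_2033 was the lowest and mouse Vh_1033 the highest for the summed list, at 13426 and 21801 CPM.

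Further falling genes had various roles. Nt5e, the ecto-enzyme that turns AMP into adenosine, was at 26.0, 28.9, 41.0 and 27.2 CPM and fell to 12.5, 15.0, 17.3, 14.7 and 17.8 CPM (log2 FC −0.98 ± 0.18, FDR 2.51e-03). Cldn2, a tight junction claudin, was at 103, 107, 103 and 104 CPM and fell to 50.2, 78.0, 54.5, 59.9 and 78.0 CPM (log2 FC −0.72 ± 0.10, FDR 1.64e-04). In both of them the groups were apart. Nr4a2, an orphan nuclear receptor, fell from 0.670 to 1.39 CPM to 0.0749 to 0.276 CPM. Sema5b, a guidance protein, fell by 1.47 ± 0.30 on the log2 scale, and Ddah1, which degrades the nitric oxide synthase inhibitor ADMA, by 0.75 ± 0.17 with overlapping groups and an FDR of 9.90e-03. Klf9, a thyroid and glucocorticoid responsive factor that the study names, missed the test with a log2 FC of −0.59 ± 0.14 and an FDR of 0.0121, although all PB-treated mice, at 47.5 to 67.6 CPM, were below the vehicle-treated ones, at 74.5 to 88.9 CPM. Spink5, Ocstamp and Cilp fell at low levels, from vehicle means of 0.724, 1.17 and 0.603 CPM.

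**Figure D3:**
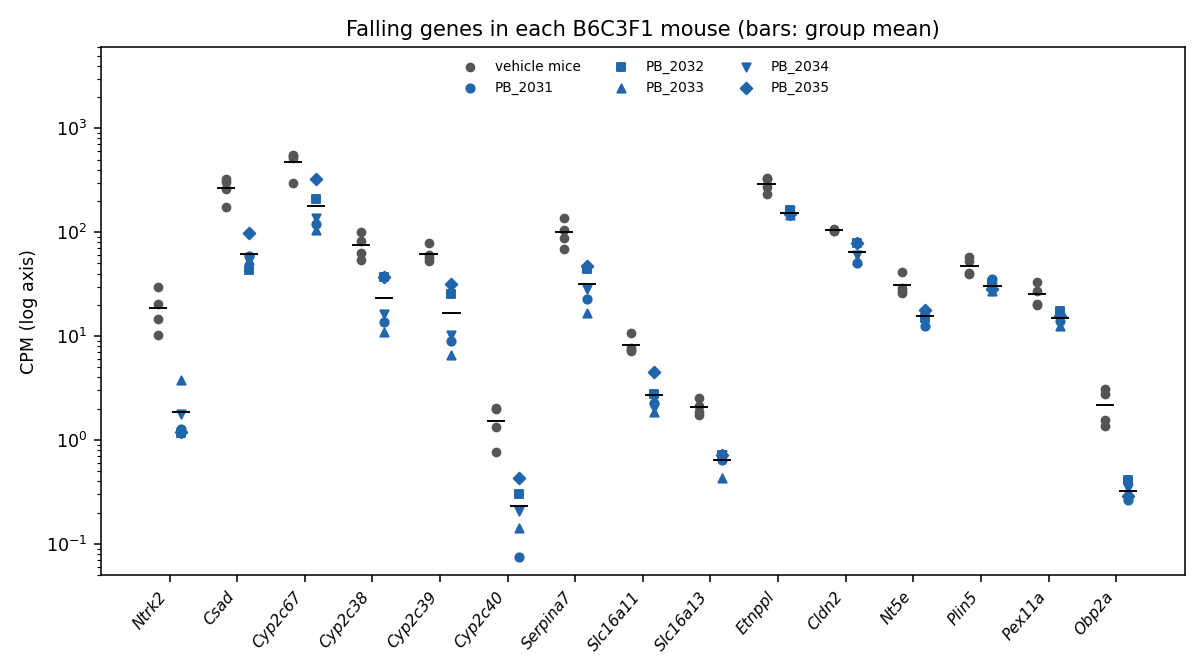
CPM on a log axis of 15 falling genes in each B6C3F1 mouse, with vehicle-treated mice in grey, PB-treated mice in blue with a symbol per animal, and bars for the group means. Cyp2c67 is the 1 gene drawn in which the groups overlap, and for Cyp2c38 and Cyp2c39 mice PB_2032 and PB_2035 lie above the other 3.

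The PB-treated mice differed in how far they stood from the vehicle-treated mice over the changed genes. No mouse was measured before PB, so these differences are not responses of single mice. The genes counted here were chosen by the PB contrast and are not replicates. On the first principal component mice PB_2032 and PB_2035 stood at 11.2 and 11.5, and the other PB-treated mice at 17.4 to 23.3. Mouse PB_2032 was the lowest of the 5 in 106 of the 215 rising genes (49.3%) against 20.3% of all tested genes, and the highest in 26 of the 62 falling genes (41.9%) against 21.9% of all tested genes. Mouse PB_2033 was the highest in 86 rising genes (40.0%) and the lowest in 30 falling genes (48.4%), against 20.4% and 22.3% of all tested genes. The median log2 difference from the vehicle mean over the rising genes was 0.95 in mouse PB_2032 and 1.18 to 1.38 in the other 4. The exceptions included Cyp2b13, Cyp2b9 and Sult3a1, in which mouse PB_2032 was the highest, whereas for Sult1e1 and Cyp2a4, rising genes of the same female-biased list, it was the lowest.

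Genes with a sex bias in mouse liver split without a common direction. Of 29 tested female-biased genes, out of 39 listed, 7 rose (Cyp2b13, Sult1e1, Sult3a1, Cyp2b9, Prom1, Slc22a26 and Cyp2a4) and 3 fell (Ntrk2, Cyp2c40 and Cyp2c69), and the median log2 FC was −0.06. With the C57BL/6 libraries left out of the fit the 7 became 3. Of 34 male-biased genes Ugt2b1 alone rose, and the median was −0.02. Moxd1, a male-biased monooxygenase, had 0, 0, 0.0705 and 0 CPM in vehicle-treated and 18.4, 0.487, 17.2, 6.91 and 1.01 CPM in PB-treated mice, but missed the test (log2 FC 5.23 ± 1.50, FDR 0.041). Genes of growth hormone signalling, which sets the sex bias, gave no call among 20. Cish and Socs2, feedback genes of STAT5, varied within groups, Cish from 3.65 to 35.8 CPM without and from 0.36 to 24.3 CPM with PB, and mouse PB_2035 was the highest PB-treated mouse in both.

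The lists of genes tied to a place in the liver lobule held few calls, in both directions. Over all tested genes 1.55% rose and 0.448% fell. Of 28 genes that are pericentral or targets of beta-catenin, the pathway that specifies the hepatocytes around the central vein, Cyp2c37, Cyp1a2 and Ahr rose and Nt5e and Cldn2 fell, with a median log2 FC of −0.12. Glul and Lgr5, defining pericentral genes, had log2 FC values of −0.31 (FDR 0.035) and −0.49 (FDR 0.24), and Axin2 one of 0.00. Of 23 periportal genes Cdh1 rose and Etnppl fell, with a median of 0.02.

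Many functions of the liver gave no call, which does not show that their genes were unchanged. In counts simulated with known changes, the test called 33.3% of genes changed 1.5-fold and 83.1% of those changed 2-fold. None of the 28 tested cell cycle genes passed the test (median log2 FC −0.06), and Mki67, a proliferation marker, was at 2.54 to 5.85 CPM without and 2.05 to 5.11 CPM with PB. Outside that list, and picked after their values were seen, Chaf1b, a subunit of a chromatin assembly factor, rose by 1.30 ± 0.24, Ect2, which acts in cytokinesis, rose by 0.72 ± 0.16, and Spc25, a kinetochore subunit, fell by 1.22 ± 0.20 on the log2 scale. Cdk4 had an FDR of 0.0049 with a log2 FC of 0.26. The same absence of calls held for 26 genes of cholesterol synthesis and uptake (median 0.11), 29 of gluconeogenesis and glucose metabolism (−0.07), 26 of the unfolded protein response (0.08), 15 apolipoproteins (−0.08), 50 complement and coagulation genes (0.02), 48 of the urea cycle and amino acid breakdown (−0.01) and 15 immediate early genes (0.02). The immediate early list did not include Nr4a2, which fell. Of 63 interferon response genes Ifi27l2b, Oasl1 and Ifi47 rose, with a median of 0.16. Of 22 MHC genes the transcribed pseudogene H2-K2 rose, and of 20 clock genes Bhlhe41 rose, where 1.55% of all tested genes rose. H2-K2 lost its call in 6 of 22 alternative settings and Bhlhe41 in 11 of 21. Of 32 genes of fatty acid and triglyceride synthesis Lpl and Elovl1 rose (0.89 ± 0.18 and 0.75 ± 0.11), 1 of the 2 calls being lost without mouse Vh_1032, PB_2031, PB_2033 or PB_2034, and the sum of that list was 62251 CPM in mouse Vh_1033 against 28282 to 37198 CPM in the other vehicle-treated mice. Nr1i3, which encodes CAR, was at 54.7 to 71.4 CPM under PB and at 66.8 to 91.4 CPM without, with an FDR of 0.016.

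**Figure D4:**
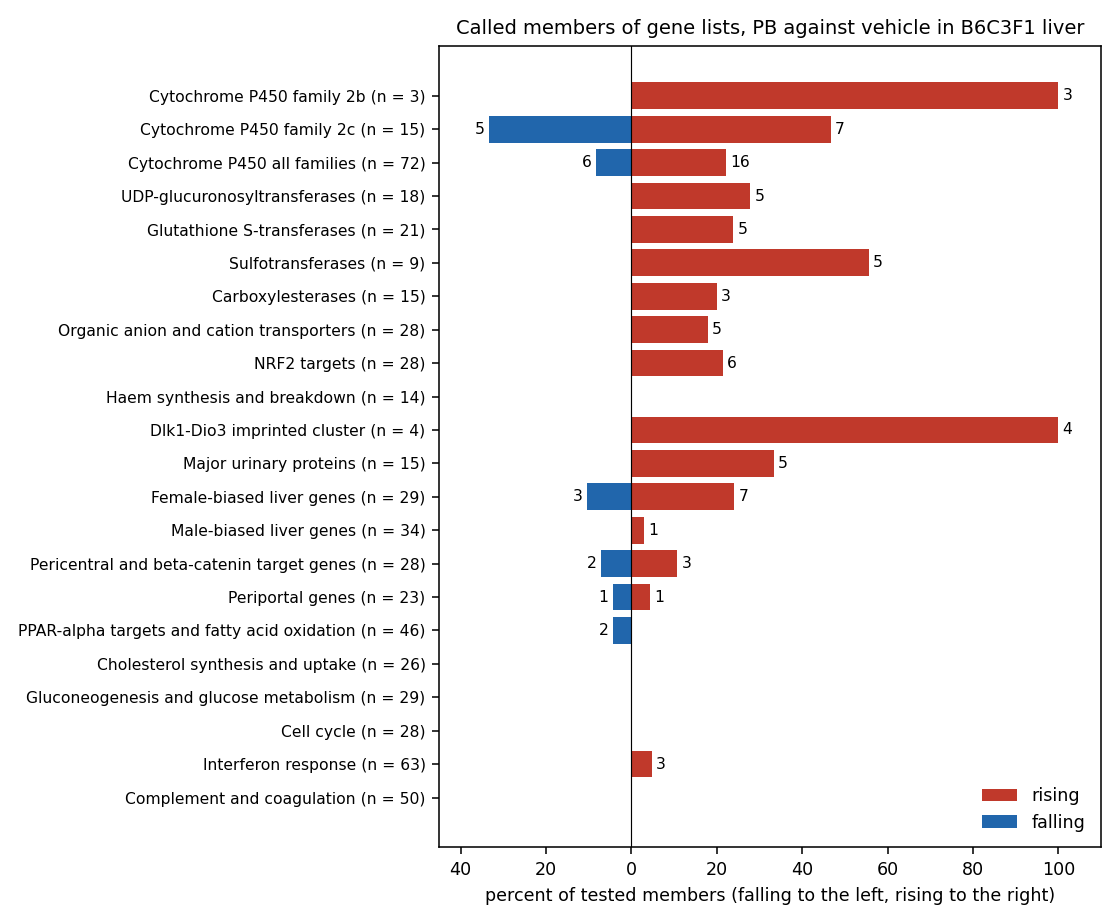
Bars give the percent of tested members (n beside each name) of 22 gene lists that fell, to the left, or rose, to the right, with the number of genes at the end of each bar. Conjugation lists reach to the right only, the Cyp2c, female-biased and pericentral lists reach both ways, and 5 lists have no bar.

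Marker genes were followed for the main cell types of liver. No member of the lists for hepatocytes (9 genes), bile duct cells (6), endothelial cells (12), stellate cells and fibroblasts (12) or Kupffer cells (11) passed the test. Summed hepatocyte markers took 112444 to 121361 CPM without and 95622 to 110982 CPM with PB, without overlap, and Alb and Ttr had log2 FC values of −0.31 and −0.32. These 2 lay at the low end of the list. Its 9 genes had a median log2 FC of −0.05 (range −0.32 to 0.29), with 7 negative and 2 positive values. The stellate list had 11 negative values of 12 (median −0.23) and overlapping sums of 556 to 758 and 464 to 610 CPM. In bulk liver fewer cells of a type and less RNA per cell cannot be told apart, and the part of cell composition in the changes above was not tested.

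The same genes were read in C57BL/6 liver, in the same fit and with control mice of that strain. There 117 genes rose (0.845%) and 4 fell (0.0289%). Of the B6C3F1 genes, 98 were called in both strains, 35.4% of the B6C3F1 calls and 81.0% of the C57BL/6 calls, 96 of them rising and 2 falling. The log2 FC had the same sign in C57BL/6 for 212 of the 215 rising and 52 of the 62 falling genes, with medians there of 0.78 and −0.34. Since the B6C3F1 calls chose these genes, their smaller values in the other strain are a description. The difference between the strains was itself tested as an interaction, and 0 genes passed both cutoffs (0%) with limma, the smallest FDR being 0.0197. An unadjusted p under 0.05 was found for 1093 genes (7.90%). edgeR also called 0 (1109 genes with an unadjusted p under 0.05) and DESeq2 called 15.

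Side by side, Cyp2b10 had log2 FC values of 7.13 in B6C3F1 and 7.07 in C57BL/6. Gstm3 had 3.85 and 4.04, Abcc4 3.02 and 3.14, Meg3 3.85 and 4.13, and Gadd45b 2.82 and 2.83. Cdh1 had 1.47 in B6C3F1 and 0.23 in C57BL/6 (unadjusted interaction p from limma 0.00045), and Src had 1.60 and 0.64 (0.0014). Sema3e, a guidance protein, had 2.22 and 0.16 (0.00018) but was under 0.1 CPM in both C57BL/6 groups. Among the falling genes Pmm1 had −1.63 and −0.36 (0.00039), Etnppl −0.90 and −0.40 (0.00032), Csad −2.12 and −0.93 (0.0041) and Nr4a2 −1.90 and −1.78 (0.79). Cyp2c39 had −2.16 and 0.13 (0.0017), at a mean of 2.59 CPM in vehicle-treated C57BL/6 against 62.0 CPM in B6C3F1, and Cyp2c38 had −1.84 and −0.07 (0.0040). None of these interactions passed the correction over all genes with limma.

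Chromatin at the changed genes was read in DNase-seq libraries of the same 9 animals, by number. DNase I hypersensitive sites (DHSs) mark accessible DNA, and 98170 of them were tested with limma over these 9 libraries and the same cutoffs. Of these, 166 opened and 21 closed. With the same cutoffs but edgeR, the study reported more changed sites in this strain. In simulated DHSs the test called 25% of those changed by a log2 FC of 1 and 74% of those changed by 2. A site that was not called is therefore not shown to be unchanged. Within 1000 bp of a RefSeq start site, 165 rising genes had 237 DHSs, of which 10 opened (4.22%) and 0 closed. The 48 falling genes with such sites had 72, of which 0 opened and 1 closed (1.39%). Over all tested genes 11 of 14485 promoter DHSs opened (0.0759%) and 3 closed (0.0207%). Of the rising genes' DHSs 195 had a positive and 42 a negative log2 FC (median 0.24), and in 55 (23.2%) all PB-treated mice lay above all vehicle-treated ones, against 1.33% over all promoters. Of the falling genes' DHSs 6 were positive and 66 negative (median −0.26), and in 13 (18.1%) all PB-treated mice lay below, against 1.84%. Over all promoters 5419 were positive and 9066 negative, with a median of −0.04.

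The DHS over the Cyp2b10 start site, which covers the sequence printed above, had 205, 256, 218 and 206 normalized reads in the vehicle-treated mice and 1366, 1204, 1586, 1468 and 1461 in the PB-treated ones (log2 FC 2.67 ± 0.11, FDR 1.16e-11). The DHS over the Cyp2c55 start had 133, 169, 111 and 146 against 447, 388, 393, 317 and 397 (log2 FC 1.48 ± 0.16, FDR 5.54e-05). In both the PB-treated mice stood far above the others. The other called sites at rising genes belonged to Nebl (2.63 and 1.68), Pnliprp1 (2.38), Cyp2b13 (1.98), Cyp2c53-ps (1.76), Cdh1 (1.60), Adamtsl1 (1.22) and Ces2c (0.91). The 1 site called as closing lay over the CG-rich Nt5e promoter printed above, at 272, 251, 325 and 252 normalized reads without PB and 85.5, 157, 135, 128 and 163 with it (log2 FC −1.06 ± 0.19, FDR 9.00e-03). The groups were apart, but the count of closing sites at falling genes was 0 without each of the mice Vh_1031, Vh_1032, Vh_1033, Vh_1035, PB_2031, PB_2032, PB_2033 and PB_2034, and 1 without PB_2035. At Ntrk2 the promoter DHS had a log2 FC of −0.48 (FDR 0.331), with all PB-treated mice below the vehicle-treated ones. The number of called promoter DHSs, 11, was 5 without mouse PB_2033, 7 without mouse PB_2031 or PB_2034, and 20 when the C57BL/6 DNase libraries shared the fit.

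**Figure D5:**
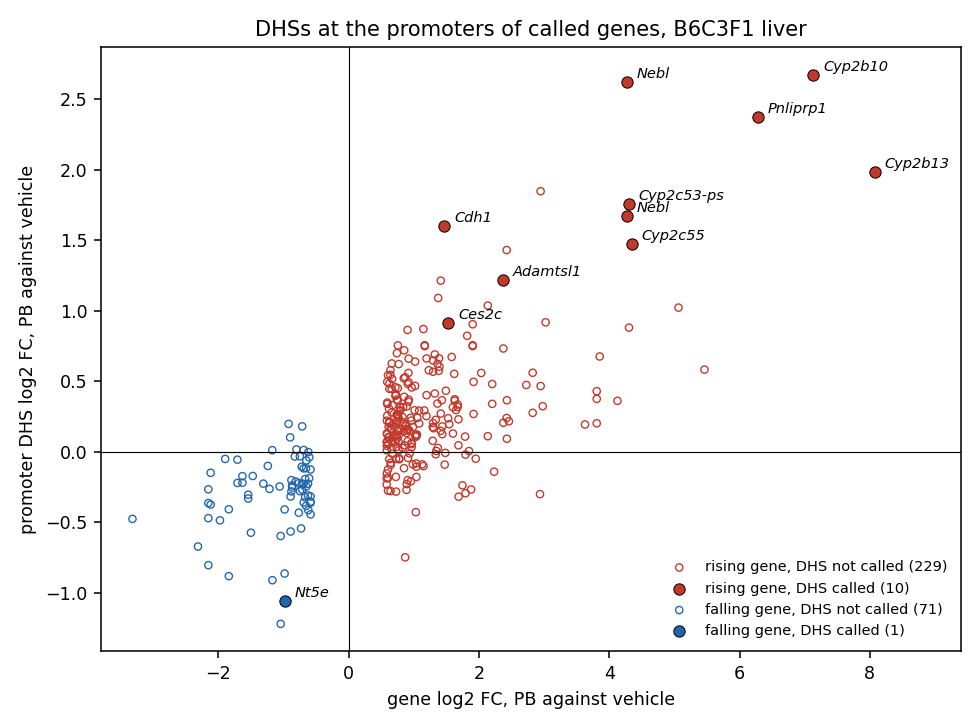
Each point is a DHS within 1000 bp of the start of a called gene, with the gene's log2 FC on the x axis and the DHS's log2 FC on the y axis, red for rising and blue for falling genes, filled where the DHS itself passed the cutoffs. The 10 filled red points are named with their genes, and Nt5e is the filled blue point at −1.06.

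Some changed genes also lay next to each other. Of the 274 called genes with a position, 58 (21.2%) were within 100000 bp of another called gene, in 22 groups, of which 7 had at least 3 genes and 1, on the Cyp2c stretch, held both directions. Besides the Cyp2c genes they included Meg3, Rtl1, Rian, AF357359 and Mirg on chromosome 12 (5 of 5 tested genes in that stretch), Gstm3, Gstm1 and Gstm4 on chromosome 3, Krt4, Krt79 and Krt18 on chromosome 15, Ugt2b34, Ugt2b1 and Ugt2b35 on chromosome 5, and Cyp2b13, Cyp2b9 and Cyp2a4 on chromosome 7. Among the falling genes the neighbours were Slc16a11 with Slc16a13, and Ctcfl, a testis-enriched relative of the insulator factor CTCF, with its antisense transcript Ctcflos. Several of these stretches are families of gene copies, in which reads may be shared. The share of neighbours was not counted over all tested genes, so whether 21.2% exceeds what gene density and gene families give was not tested.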

How the data were processed

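Total RNA of frozen liver was ribosome-depleted, sequenced as stranded 76-bp pairs and, per the labels and the study's methods, aligned to mm10 with STAR 2.4.0f1. The authors counted uniquely mapped reads per RefSeq gene by strand, scaled them with edgeR 3.12.1 (TMM) and deposited them as a signal in CPM for genes with at least 0.4 CPM in 3 samples, a filter that a gene can pass through 1 group alone. DNase-seq signal was deposited as normalized reads per DHS (Bowtie2 2.1.0, MACS2, DiffBind 1.16.3). Of the RNA values 100% were whole multiples (within 0.01) of 1 read per library, so reads were recovered.

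The 13838 of 13862 genes passing the filter in 1 of the 4 groups were fitted with limma 3.58.1 (trend, robust) on log2(CPM + 0.1) over 18 libraries, with the contrast PB against vehicle within B6C3F1. Each library is 1 mouse. edgeR 4.0.16 on the recovered reads called 291 genes and DESeq2 1.42.0 called 376. DHSs were fitted on log2(signal + 1). Count intervals are exact 95% binomial ones and cover counting error only. The scripts were tested on simulated data.

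Named genes were the 15 rising and 15 falling genes of largest log2 FC without overlap, up to 4 called members of each list and direction, and genes the study names. Others were chosen after their values were seen, and a few genes are not reported here. The members and lists were chosen with earlier results of these data known. Positions were matched by symbol to RefSeq for 274 of the 277 called genes. Other pseudocounts, filters, scalings, samples, tests and thresholds were tried, and each mouse was left out in turn.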

Additional observations from a re-analysis of the deposited data

Results flagged for a closer look

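Among 230 groups of 4 or 5 values tested for a single value far from the rest, 19 had one (8.26%), where chance gives about 1 in 20 for normally spread values. In the vehicle-treated mice these were high values of Cyp2c66 (mouse Vh_1031, 0.0339 CPM, which is 1 read), Cyp2c65 (mouse Vh_1031, 0.0678 CPM), Krt79 (mouse Vh_1031, 0.102 CPM), Nr4a2 (mouse Vh_1031, 1.39 CPM), Src (mouse Vh_1031, 3.08 CPM), Cyp2c53-ps (mouse Vh_1032, 12.0 CPM), Aldh1a1 (mouse Vh_1032, 2387 CPM), Por (mouse Vh_1032, 118 CPM), Slc16a11 (mouse Vh_1033, 10.7 CPM), Gadd45b (mouse Vh_1035, 1.27 CPM) and Krt18 (mouse Vh_1035, 139 CPM). Low values were those of Sult1e1 (mouse Vh_1035, 0 CPM), Smpd3 (mouse Vh_1032, 1.54 CPM) and Ugt1a1 (mouse Vh_1033, 202 CPM). Cyp2c66, Krt79, Sult1e1 and Cyp2c65 had 0 to 3 reads in each vehicle-treated mouse, where the rate of 1 in 20 does not apply. In the PB-treated mice Sult3a1 was high in mouse PB_2032 (9.63 CPM) and Ifi47 in mouse PB_2035 (34.3 CPM), and Ocstamp (0.108 CPM) and Slc16a13 (0.432 CPM) were low in mouse PB_2033. Vehicle mouse Vh_1033 stood apart on the second principal component, at −22.2.

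The PB response differed between the strains at an interaction FDR of at most 0.05 (limma) for 4 genes with a difference of at least 0.58. Smpd3, the neutral sphingomyelinase, rose by 3.63 on the log2 scale in B6C3F1 mice and by 2.31 in C57BL/6 mice, a difference of 1.32 ± 0.20 (FDR 0.0197). Tmc5, a membrane protein of the TMC family, had 1.89 and −0.81, a difference of 2.70 ± 0.45 (FDR 0.0197), and was at a mean of 0.127 CPM in vehicle-treated C57BL/6 against 1.66 CPM in B6C3F1. Nostrin, a regulator of nitric oxide synthase trafficking, differed by 0.66 ± 0.11 (FDR 0.0197), and Myo9a, an unconventional myosin, by −0.61 ± 0.11 (FDR 0.0482), 0.35 in B6C3F1 mice against 0.96 in C57BL/6 mice.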

How the results depend on the processing

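No paired analysis was possible because vehicle-treated and PB-treated mice carry different animal numbers. No named gene or count reversed its direction in any of the 22 alternatives tried on the RNA. Of the 111 named genes that passed the test, 71 kept their call in every alternative run for them (62 rising, 9 falling; 22 alternatives each, 21 for Krt79 and Nr4a2, which a minimum of 1 CPM left out), and 18 lost it in 5 or more, among them Ugt2b1, Slc51b, Catsperd, Bhlhe41, Ddah1, Cyp2c38 and Cyp2c39. Fitting the 9 B6C3F1 libraries alone gave 181 called genes, of which 27 fell, and 175 of the 181 were among the 277. DESeq2 gave 106 falling genes, an FDR of 0.05 gave 122, and no minimum log2 FC gave 617 genes, 440 rising and 177 falling. Leaving out 1 mouse gave 214 to 304 called, 171 to 224 rising and 43 to 80 falling genes. The strain interaction count of 0 became 3 with a pseudocount of 0.5 or 1, 15 with DESeq2, 1 with sample weights, 4 at an FDR of 0.05 and 0 to 3 without 1 mouse (2 without mouse Vh_1031, 3 without mouse PB_2032). The 11 promoter DHSs became 20 with all 18 DNase libraries or an FDR of 0.05, and 5 to 14 without 1 mouse. Quantile normalization and median centring moved the share of rising genes from 77.6% to 74.6% and 76.0%. With 4 and 5 mice, and means under 1 CPM for 56 rising and 4 falling genes in vehicle-treated liver, the size of the lowest genes' changes depends on the pseudocount. The cause of the moved counts was not tested.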

Other observations

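Some rising genes outside the lists belong to secreted signals and to the Wnt pathway, and they were picked after their values were seen. Wisp1, a matricellular protein induced by Wnt signalling, was at 3.66, 1.44, 3.49 and 2.83 CPM in the vehicle-treated mice and at 27.7, 17.4, 32.2, 18.8 and 14.9 CPM in the PB-treated ones (log2 FC 2.94 ± 0.28, FDR 3.58e-06, limma). Wif1, a secreted inhibitor of Wnt proteins, rose from at most 0.203 CPM to 0.450 to 1.21 CPM (log2 FC 1.95 ± 0.40, FDR 3.01e-03), and Tnfrsf19, a receptor also known as a Wnt target, rose by 0.96 ± 0.18. Axin2, Nkd1, Rnf43 and Notum, further targets of the pathway that were listed with the pericentral genes, had log2 FC values of 0.00, 0.07, 0.11 and −0.36 and did not pass the test. Gdf15, a stress-induced hormone, rose from 1.05 to 2.72 CPM to 3.41 to 9.44 CPM (log2 FC 1.68 ± 0.35, FDR 4.91e-03).

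Ndrg1, which lies next to Wisp1 on chromosome 15 and responds to hypoxia and to metals, rose from 11.1 to 15.2 CPM to 34.6 to 55.2 CPM (log2 FC 1.67 ± 0.20, FDR 3.73e-05). Ptges, the prostaglandin E synthase, rose from 0.339 to 1.73 CPM to 2.92 to 5.83 CPM (log2 FC 2.51 ± 0.29, FDR 5.57e-06). Grm8, a receptor of glutamate, rose by 1.32 ± 0.24. Among the falling genes, Spc25, a subunit of the kinetochore, fell from 3.53 to 5.60 CPM to 1.40 to 3.07 CPM (log2 FC −1.22 ± 0.20, FDR 3.30e-04), and Irf5, an interferon regulatory factor of macrophages, fell by 0.78 ± 0.17 on the log2 scale while the Kupffer cell list gave no call.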
